A study of Homo sapiens with 7 samples.

Results

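NF-kB is a family of dimeric transcription factors, and the genes described here are its 5 subunits with 5 genes that it is known to switch on, most of them brakes on inflammatory signalling. The 10 genes were given by name: the subunits NFKB1, NFKB2, REL, RELA and RELB, the inhibitor NFKBIA, the ubiquitin-editing enzyme TNFAIP3, the mRNA-destabilising protein ZFP36, the stress response gene IER3 and the adhesion molecule ICAM1. All 10 had a probe set of their own on the array, among 19775 genes with one, and all 10 reached the detection floor used here (21.4 intensity units, the median of all values) on 7 of 7 arrays. Each gene is represented by its brightest probe set, and the array holds 21 single-gene probe sets for the 10 genes.

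The cells were HSC-3, a widely used human line derived from oral squamous carcinoma. A control culture stayed at 37 °C without heat. The other 6 cultures spent 90 min at 42 °C or at 44 °C, and RNA was taken immediately (0 h) or following a return to 37 °C that lasted 6 h or 12 h. Each condition is represented by 1 Affymetrix array of total RNA, 7 in all. Every comparison is between a pair of arrays, with no replicate check and no p-value, and the number of arrays limits the precision. The heated arrays are all set against the same control array.

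In resting cells NF-kB dimers are held in the cytoplasm by IkB proteins such as NFKBIA. Signals from cytokine receptors activate the IKK kinases, which mark IkB for destruction, and the freed dimers enter the nucleus. There they raise inflammatory genes together with their own inhibitors, NFKBIA and TNFAIP3, whose messenger RNAs are short-lived and so follow the activity of the pathway within hours. In squamous carcinoma cells this pathway is known for driving the production of cytokines and chemokines.

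Several members carry binding motifs for NF-kB next to their start sites. The stretches of DNA before the starts of 4 members are shown because 3 of them (NFKBIA, REL and ICAM1) fell together on 1 array while NFKB1 did not. The sequences are from RefSeq (build GRCh38.p14), 250 bases up to the start, 5′ to 3′ on the gene's strand, in lower case with matches to the 10-base NF-kB consensus in capitals. NFKB1 has 2 windows in the table, of which the one with a match is shown, and ICAM1 has no match to this consensus. The consensus demands GGG at its start, or CCC at its end on the other strand. A site with other letters is therefore missed, and no match does not mean no site. For TNFAIP3, whose window lies inside the annotated gene, only the 22 bases that span its pair of matches, at -67 to -46 from the start, are given.
NFKBIA, chr14:35404750-35404999, minus strand: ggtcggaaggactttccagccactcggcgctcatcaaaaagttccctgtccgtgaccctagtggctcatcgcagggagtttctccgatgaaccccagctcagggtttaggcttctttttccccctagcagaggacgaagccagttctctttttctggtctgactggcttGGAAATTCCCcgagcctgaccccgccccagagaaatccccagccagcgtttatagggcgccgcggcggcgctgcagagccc
REL, chr2:60881324-60881573, plus strand: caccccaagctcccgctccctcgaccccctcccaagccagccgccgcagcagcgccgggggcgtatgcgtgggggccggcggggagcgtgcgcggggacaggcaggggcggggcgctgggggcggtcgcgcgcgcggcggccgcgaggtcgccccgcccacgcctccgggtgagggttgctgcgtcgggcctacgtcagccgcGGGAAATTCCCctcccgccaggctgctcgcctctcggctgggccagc
NFKB1, chr4:102501109-102501358, plus strand: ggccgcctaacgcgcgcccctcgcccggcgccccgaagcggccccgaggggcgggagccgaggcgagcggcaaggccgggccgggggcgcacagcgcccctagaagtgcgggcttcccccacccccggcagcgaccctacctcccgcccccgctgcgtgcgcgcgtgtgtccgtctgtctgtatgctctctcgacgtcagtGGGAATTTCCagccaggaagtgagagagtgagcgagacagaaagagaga
ICAM1, chr19:10270870-10271119, plus strand: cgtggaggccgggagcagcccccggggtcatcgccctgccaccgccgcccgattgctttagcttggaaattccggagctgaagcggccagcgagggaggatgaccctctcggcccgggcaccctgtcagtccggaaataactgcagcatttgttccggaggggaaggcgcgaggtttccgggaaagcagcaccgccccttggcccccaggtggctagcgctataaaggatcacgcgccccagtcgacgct
TNFAIP3, chr6:137867192-137867213, plus strand: GGAAAGTCCCgtGGAAATCCCC

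The search covered windows from 250 bases before to 50 bases after each start, on both strands, and RefSeq entries were at hand for 8 of the 10 genes, all except RELB and IER3. The consensus was found for 5 of these 8 genes (NFKB1, NFKB2, REL, NFKBIA and TNFAIP3), against 7.09% of 27305 genes with a window. In NFKBIA the match lay at -81 to -72, in NFKB1 at -49 to -40, and in REL overlapping matches covered -47 to -37. A looser form, GGGNNNNNCC, which includes every consensus match, was found for 8 of 8 genes but also for 61.7% of all genes. A heat shock element (GAANNTTCNNGAA or TTCNNGAANNTTC) was in none of the 8, against 0.608% of all genes. These matches describe letters in the windows, not bound sites. Among tested genes with a window, 3.5% of the 1057 with the consensus fell at 42 °C, 0 h, as defined below, and 3.18% of the 10897 without it.

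The arrays differed in overall level, with median intensities from 18.7 to 32.1. For probe sets that reached the floor on each of the arrays, the median of the heated arrays lay between -0.35 (44 °C, 12 h) and 0.40 (44 °C, 0 h) log2 units from the control. A gene is therefore said to have risen or fallen only where it differed by at least 2-fold (1 log2 unit) in the same direction under 3 scalings: the deposited values, quantile-normalized values, and values with each array shifted to a common median. The fraction of all 15029 tested genes that passed this rule is given as the background of each count. Folds are on the deposited scale unless a range over the 3 scalings is given. Among bright probe sets of 4516 genes with at least a pair of them, those of the same gene disagreed with a standard deviation of 0.30 to 0.44 log2 units per comparison, which serves as a yardstick in place of replicate error. The strictly heat-inducible chaperone gene HSPA6 was below the floor on the control and 42 °C, 12 h arrays and read 262 to 12566 on the other 5. Of 10 listed epithelial markers 7 were measured (KRT5, KRT14, KRT8, KRT18, SFN, EPCAM and CDH1), while KRT17, KRT6A and TP63 were not. All 7 were above 4 times the floor on every array, and their summed intensity ran from 49151 to 65524. The endothelial markers CDH5, VWF, TEK and EMCN, the leukocyte marker PTPRC and the fibroblast marker LUM were below the floor on every array. The endothelial marker PECAM1 was above the floor on every array, at 30.6 to 51.2. So were the leukocyte markers ITGAM (21.96 to 36.6) and LAPTM5 (224 to 578), and COL1A1 of the fibroblast list (139 to 307). The other measured leukocyte and fibroblast markers reached the floor only on some arrays, at up to 43.5 (CD14 at 44 °C, 12 h). Summed intensities ran from 203 to 420 for the 6 fibroblast, 287 to 655 for the 5 leukocyte and 47.1 to 79.5 for the 5 endothelial markers. The ratio of the 3′ to the 5′ control probe set was 1.19 to 1.29 for ACTB and 0.88 to 0.99 for GAPDH, and on the 42 °C, 0 h array it was 1.26 and 0.91.

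**Figure D1:**
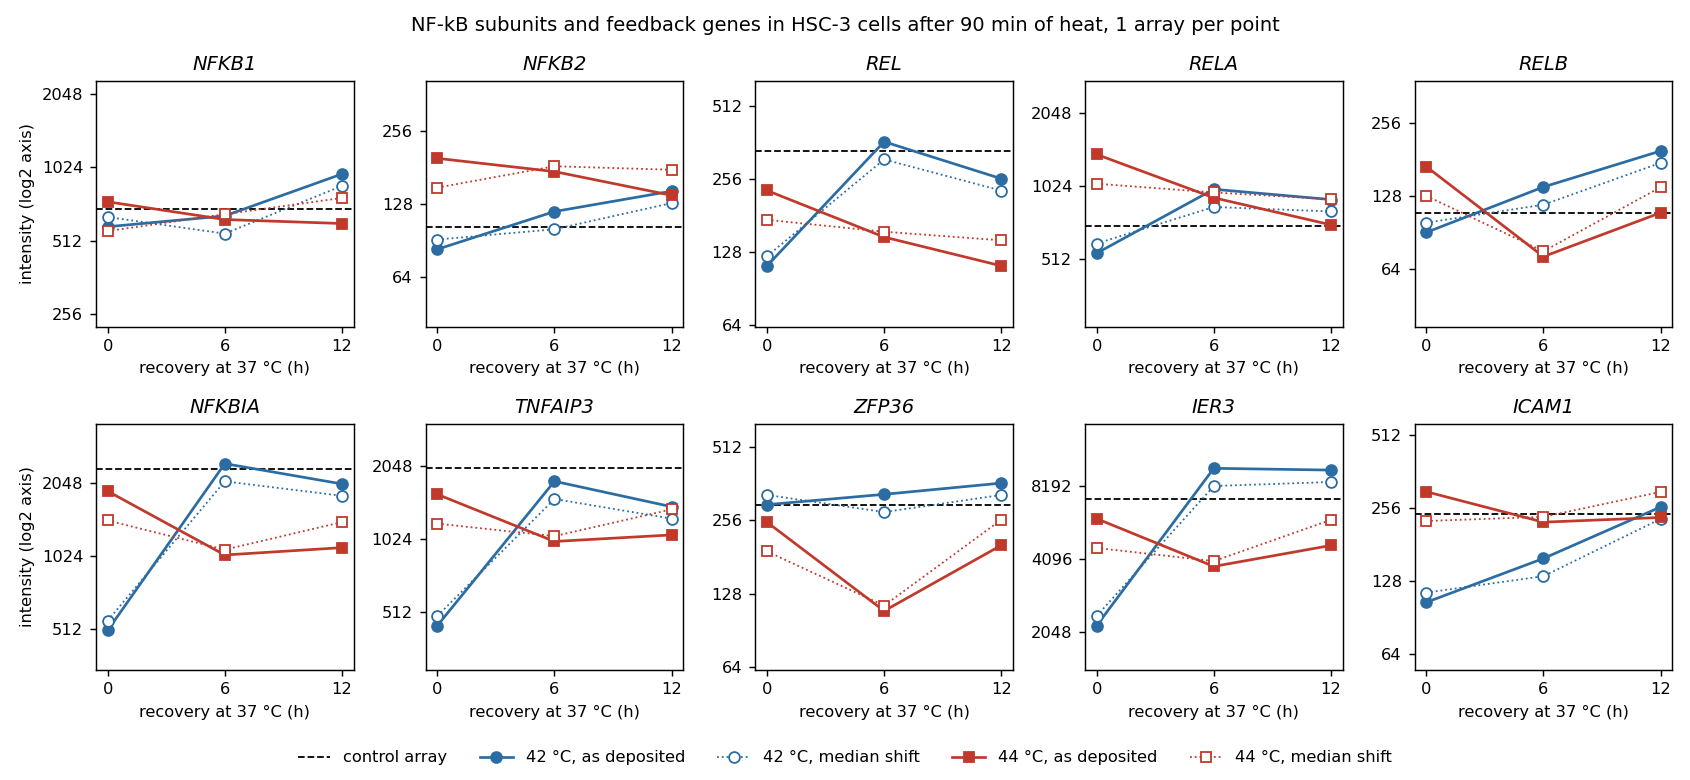
Intensity (log2 axis) of the brightest probe set of each gene against hours of recovery after 42 °C (blue circles) or 44 °C (red squares), 1 array per point, as deposited (filled) and after the median shift (open), with the control array as a dashed line. NFKBIA, TNFAIP3, REL and IER3 are lowest directly after 42 °C and back near or above the control at 6 h, with TNFAIP3 below it on both scales.

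Directly after 42 °C, 5 of the 10 genes fell and none rose: NFKBIA, TNFAIP3, IER3, REL and ICAM1. Of all tested genes 3.21% fell and 1.48% rose in this comparison. The median difference of the 10 genes was -0.79 log2 units, against -0.07 over all tested genes, and 9 of the 10 were below the control. The drop reached both main inhibitors of the pathway, the cytoplasmic anchor NFKBIA and the ubiquitin editor TNFAIP3, and 1 of the 5 subunits, REL. The other 4 subunits stayed within 0.37 log2 units of the control.

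NFKBIA, which binds NF-kB dimers and keeps them out of the nucleus, read 2341 in the control, 506, 2456 and 2026 after 42 °C (0, 6 and 12 h) and 1892, 1033 and 1108 after 44 °C. The 42 °C, 0 h array is the lowest of the 7, and both late 44 °C arrays lie between it and the others. NFKBIA fell 4.63-fold at 42 °C, 0 h (4.22 to 4.63 over the scalings), the 11th lowest difference among 10988 genes measured on both arrays and -5.93 in units of the probe set yardstick. By 6 h it had risen 4.86-fold from that level. After 44 °C it was 1.24-fold below the control at 0 h, which did not pass, and fell 2.27-fold at 6 h. At 12 h after 44 °C it was 2.11-fold lower as deposited but 1.66-fold after the median shift, so this did not pass. Its second probe set was dim, at 31.2 in the control and 11.7 on the 42 °C, 0 h array, and can show no more than a bound.

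TNFAIP3 (A20), which trims ubiquitin chains from signalling proteins upstream of the IKK kinases, followed nearly the same course. It read 2003 in the control, 451, 1772 and 1393 after 42 °C and 1566, 1002 and 1066 after 44 °C. The 42 °C, 0 h array again stands alone at the bottom, 4.44-fold below the control, and TNFAIP3 rose 3.93-fold from there to 6 h. Its second probe set gave 897 in the control, 233, 926 and 626 after 42 °C and 849, 480 and 406 after 44 °C, with a fall of 3.86-fold at 42 °C, 0 h. At 44 °C, 6 h the brightest probe set sat at the edge of the rule: it was 2.00-fold lower as deposited, 2.05-fold after quantile normalization and 1.90-fold after the median shift.

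IER3, an early response gene known to act in cell survival and to restrain NF-kB, read 7257 in the control, 2176, 9667 and 9505 after 42 °C and 5999, 3816 and 4655 after 44 °C. All 3 arrays after 44 °C are below the control, and the late pair after 42 °C is above it. The 3.34-fold fall at 42 °C, 0 h passed, as did the 4.44-fold rise from there to 6 h. At 44 °C, 6 h IER3 was 1.90-fold below the control, 2.11-fold after quantile normalization, and did not pass. This gene has 1 probe set, so nothing on the array checks it.

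REL (c-Rel), a subunit with a transactivation domain best known from lymphocytes, was the only member to pass on 3 heated arrays, at 42 °C, 0 h and at 44 °C, 6 and 12 h. It read 334 in the control, 112, 364 and 257 after 42 °C and 229, 148 and 112 after 44 °C. After 42 °C the low value was followed by a return, and after 44 °C each later array was lower than the one before, although neither step passed. These steps after 44 °C were -0.64 and -0.39 log2 units as deposited, where the medians of all tested genes were -0.43 and -0.16. After quantile normalization the steps were -0.12 and -0.13. The falls were 2.97-fold at 42 °C, 0 h, 2.26-fold at 44 °C, 6 h and 2.97-fold at 44 °C, 12 h, and the rise from 0 to 6 h after 42 °C was 3.24-fold. The other 3 probe sets that reached the floor were also below the control on these 3 arrays, by 1.48-fold (at 44 °C, 6 h) to at least 7.59-fold (at 44 °C, 12 h). At 44 °C, 0 h these 3 probe sets disagreed: they were 2.24-fold below the control, which passed, 1.18-fold below it and 1.30-fold above it. The fifth probe set was below the floor on every array.

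ICAM1, the cell surface molecule that leukocytes grip during inflammation, read 242 in the control, 105, 159 and 258 after 42 °C and 299, 224 and 234 after 44 °C. It was low at 42 °C, 0 h, where it fell 2.31-fold (2.03 to 2.31 over the scalings), and intermediate at 6 h. The 4 remaining heated arrays lay within 1.23-fold of the control as deposited, and the sign of each of these 4 differences changed between scalings. A second probe set was 2.21-fold lower at 42 °C, 0 h and the third 1.19-fold lower, so the mean of its probe sets did not pass.

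**Figure D2:**
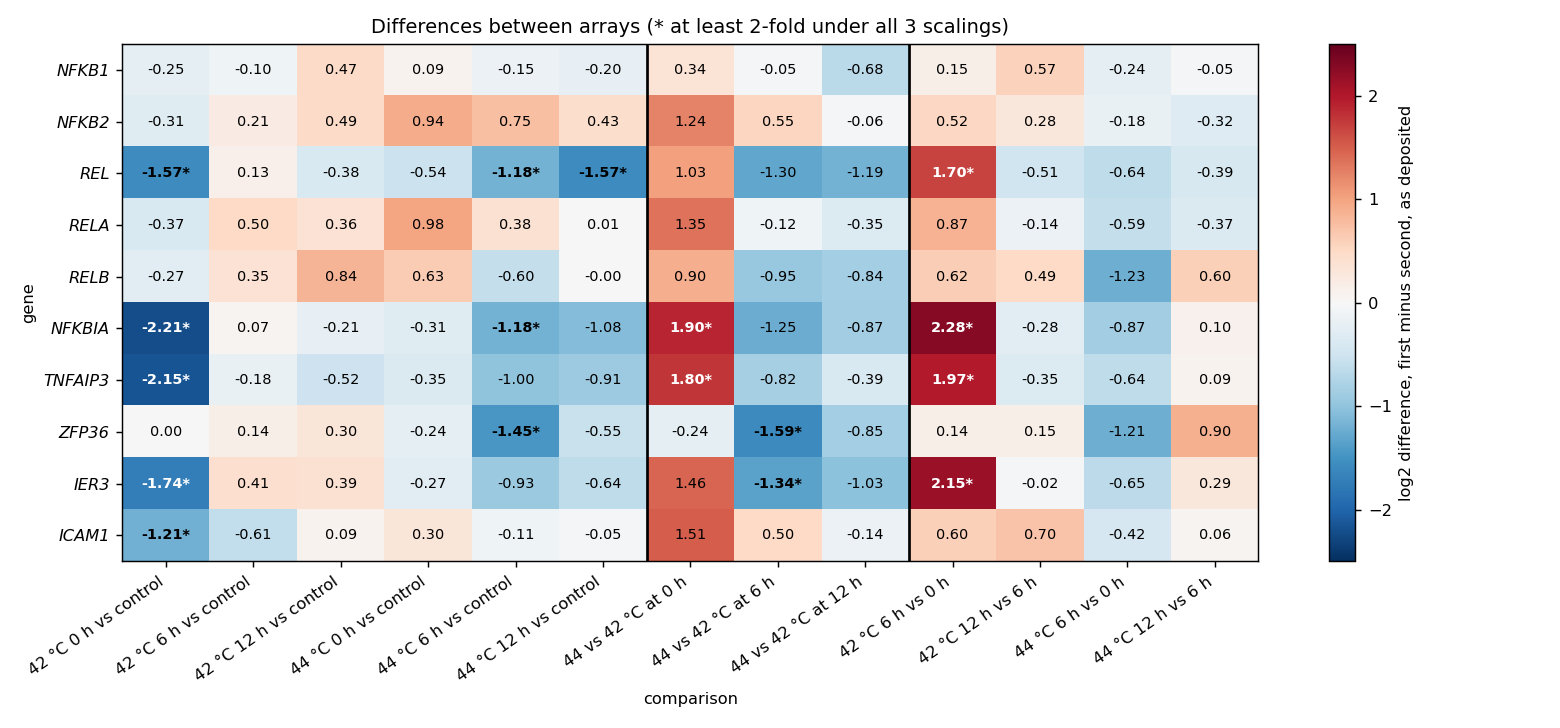
Log2 differences of the 10 genes in each of the 13 comparisons between arrays, on the deposited scale, with an asterisk where the gene differed at least 2-fold under all 3 scalings. The column for 42 °C, 0 h against the control has 5 falls, and the columns for 42 °C, 6 and 12 h have none.

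At 6 and 12 h after 42 °C none of the 10 genes passed in either direction against the control. At 6 h 1.52% of all tested genes rose and 2.02% fell, and at 12 h 0.991% rose and 1.45% fell. The median difference of the 10 genes was 0.13 at 6 h and 0.33 at 12 h as deposited, against 0.12 and 0.09 over all tested genes, and after quantile normalization it was -0.16 and 0.12. Between 0 and 6 h after 42 °C, 4 of the 10 genes rose (NFKBIA, IER3, TNFAIP3 and REL), where 3.77% of all tested genes rose and 1.04% fell. This comparison and the one of 0 h with the control share the 42 °C, 0 h array, on which these 4 genes are low. Between 6 and 12 h none passed (background 0.991% higher and 0.938% lower).

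Directly after 44 °C none of the 10 genes passed against the control, with 2.18% of all tested genes risen and 0.725% fallen. RELA, the subunit that with NFKB1 forms the most common activating dimer, read 700.2 in the control, 540.3, 990.4 and 898 after 42 °C and 1378, 914 and 707 after 44 °C. NFKB2, the precursor of the p52 subunit of the slower non-canonical branch, read 103 in the control, 83.6, 119.5 and 145 after 42 °C and 198, 175 and 139 after 44 °C. As deposited both are highest on the 44 °C, 0 h array, the array with the highest overall level. There RELA was 1.97-fold and NFKB2 1.91-fold above the control as deposited and 1.49-fold and 1.45-fold above it after the median shift. After the median shift and after quantile normalization NFKB2 was instead highest at 44 °C, 6 h, at 0.83 and 0.94 log2 units above the control, below the 2-fold threshold. At 44 °C, 0 h the dimmer second probe set of NFKB2 did pass, at 120.1 against 43.4 in the control. A dimmer probe set of REL passed in the other direction, at 72.4 against 162.1 in the control. On that array the second probe set of RELA was 1.63-fold above the control and did not pass.

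RELB, the partner of p52 in that branch, read 109 in the control, 90.8, 139.6 and 196 after 42 °C and 169, 72.2 and 109 after 44 °C. NFKB1, the precursor of the p50 subunit, read 693 in the control, 584, 647 and 963 after 42 °C and 740.0, 625 and 602 after 44 °C. NFKB1 varied least of the 10 genes, with its highest array 1.65-fold above its lowest. RELB was lowest at 44 °C, 6 h, at 1.52-fold below the control, and highest at 42 °C, 12 h, at 1.79-fold above it. Neither gene passed in any of the 13 comparisons, and each has 1 probe set.

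At 6 h after 44 °C 3 of the 10 genes fell (REL, NFKBIA and ZFP36) and none rose, where 2.75% of all tested genes fell and 1.54% rose. With the mean of each gene's probe sets in place of the brightest, REL and NFKBIA did not pass, which left 1 gene in place of 3. For ZFP36, the gene left, this mean is the same probe set, so it is no check of that gene. For NFKBIA the mean takes in its dim second probe set, which was below the floor on this array (15.9). The median difference of the 10 genes was -0.76 log2 units, with 0 over all tested genes. ZFP36 (tristetraprolin), which binds AU-rich messenger RNAs such as that of TNF and marks them for decay, read 296 in the control, 297, 328 and 364 after 42 °C and 252, 109 and 202 after 44 °C. It differed from the other falling genes in that it was level with the control at 42 °C, 0 h and lowest at 44 °C, 6 h, 2.73-fold below the control (2.44 to 2.73 over the scalings). From there to 12 h it was 1.86-fold higher as deposited and 2.27-fold after quantile normalization. ZFP36 has 1 probe set. At 12 h after 44 °C REL alone passed, with 3.64% of all tested genes fallen and 1.74% risen. Between 0 and 6 h after 44 °C none of the 10 passed (background 0.253% higher and 1.3% lower), and none between 6 and 12 h (0.971% and 0.932%).

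Set against each other directly after heat, 44 °C left NFKBIA 3.74-fold and TNFAIP3 3.47-fold above 42 °C, and both passed, where 3.01% of all tested genes were higher and 0.625% lower. As deposited 7 of the 10 genes were at least 2-fold higher at 44 °C, but the median of all tested genes was itself 0.54 log2 units higher. After quantile normalization the median difference of the 10 genes was 0.79, and IER3 was 1.91-fold to 2.76-fold and ICAM1 1.97-fold to 2.85-fold higher over the scalings. The low side of this contrast is the same 42 °C, 0 h array. At 6 h the calls ran the other way: ZFP36 was 3.02-fold and IER3 2.53-fold lower at 44 °C, and both passed, against 4.5% lower and 1.72% higher of all tested genes. REL and NFKBIA were 2.47-fold and 2.38-fold lower there as deposited, and 1.80-fold and 1.91-fold at the smallest. At 12 h none of the 10 passed (3.7% lower and 1.83% higher in the background), and 10 of 10 were lower at 44 °C as deposited, with a median of -0.76 that became -0.17 after quantile normalization, with NFKB2, RELA, TNFAIP3 and ICAM1 higher on that scale.

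**Figure D3:**
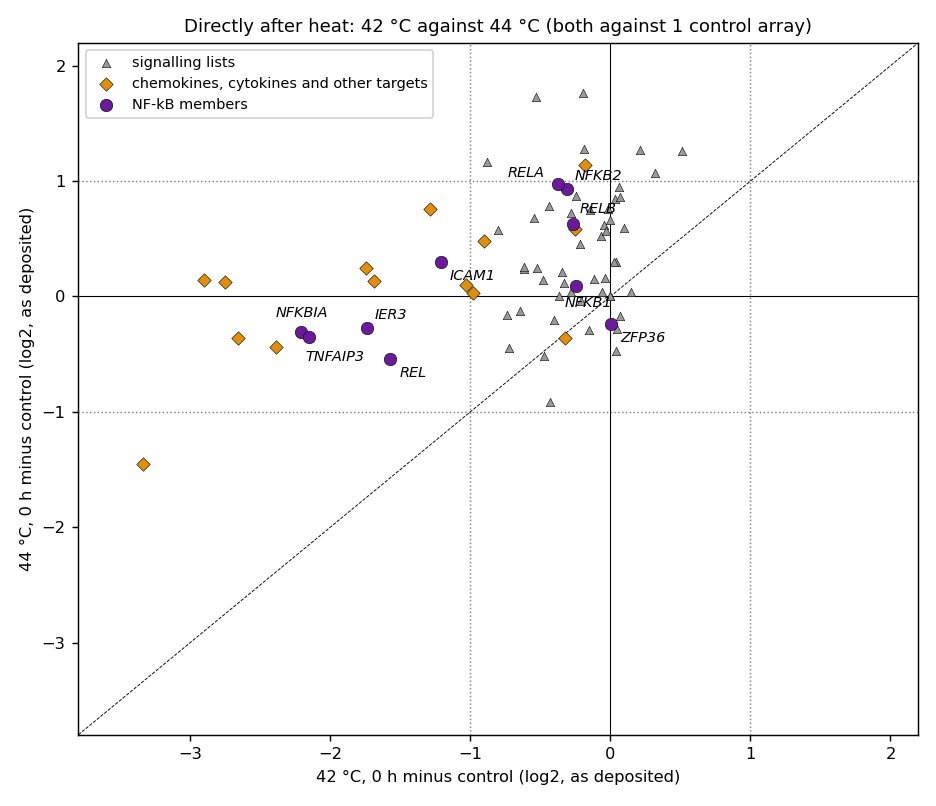
Log2 difference from the control directly after heat, at 42 °C (horizontal) and 44 °C (vertical), as deposited, for the 10 genes (purple circles), other NF-kB target genes (orange diamonds) and genes of 5 signalling lists (grey triangles) that reached the floor. NFKBIA, TNFAIP3, IER3, REL and ICAM1 lie left of the 2-fold line (dotted at -1) at 42 °C and between the 2-fold lines at 44 °C, as do most of the falling targets, and no signalling gene lies left of that line.

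The genes that carry the signal to NF-kB were read from 5 lists, other IkB proteins, IKK and upstream kinases, adaptors and ubiquitin ligases, other negative regulators, and receptors. In these lists 50 genes reached the floor on any array. RNF31 and TLR4 were below it on both the control and the 42 °C, 0 h array, so they could not pass in that comparison. None of the 50 fell or rose at 42 °C, 0 h, where their differences ran from -0.88 to 0.51 log2 units, and with 3.21% of all tested genes fallen and 1.48% risen this count is near the background. Against the control, 1 rose and 2 fell at 42 °C, 6 h (background 1.52% and 2.02%), and 2 rose at 44 °C, 0 h (2.18%). At 44 °C, 12 h 1 fell (3.64%), and none passed on the other heated arrays. These counts of 50 are also near the background. NFKBIZ, a nuclear IkB protein that is itself switched on by NF-kB, read 165 in the control, 114, 215 and 187 after 42 °C and 548, 270 and 202 after 44 °C. It rose 3.32-fold at 44 °C, 0 h, where NFKBIA was 1.24-fold lower. TAB1, which activates the kinase MAP3K7, rose 3.39-fold on the same array, from 24.4, close to the floor, to 82.6.

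TLR3, a receptor for double-stranded RNA, read 61.0 in the control, 61.0, 173 and 70.9 after 42 °C and 96.8, 29.1 and 16.7 after 44 °C. It rose 2.84-fold at 42 °C, 6 h and fell at least 2.86-fold at 44 °C, 12 h. The 2 falls at 42 °C, 6 h were in NFKBIB, an IkB protein (2.09-fold), and TICAM1, the adaptor of TLR3 (2.03-fold). With the mean of its probe sets NFKBIB was 0.35 log2 units above the control instead.

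The inflammatory targets were read from a further list. Of 14 chemokine, cytokine and other target genes that reached the floor on any array, 8 fell at 42 °C, 0 h. The median of the 14 was -1.49 log2 units, where 3.21% of all tested genes fell and the median of all tested genes was -0.07. Elsewhere against the control, CXCL2 fell on all 3 arrays after 44 °C, CCL20 and LIF fell at 42 °C, 6 h, and IL6 rose at 42 °C, 6 and 12 h. Of all tested genes 0.725% to 3.64% fell on the 44 °C arrays. At 42 °C, 6 h 2.02% fell and 1.52% rose, and at 12 h 0.991% rose. LIF read 51.6 in the control and 17.2 at 42 °C, 6 h, below the floor, so its fold is a bound. CXCL2, a chemokine for neutrophils, read 745 in the control and 73.5 at 42 °C, 0 h, against 506 from 2341 for NFKBIA on the same pair of arrays. TNF read 377 and 50.5, IL1A 2859 and 424, and CXCL3 was 6.31-fold lower. Of the 14, 8 rose between 0 and 6 h after 42 °C, where 3.77% of all tested genes rose. This comparison shares the 42 °C, 0 h array, and all of these 8 except IL6 are among the genes that fell there.

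**Figure D4:**
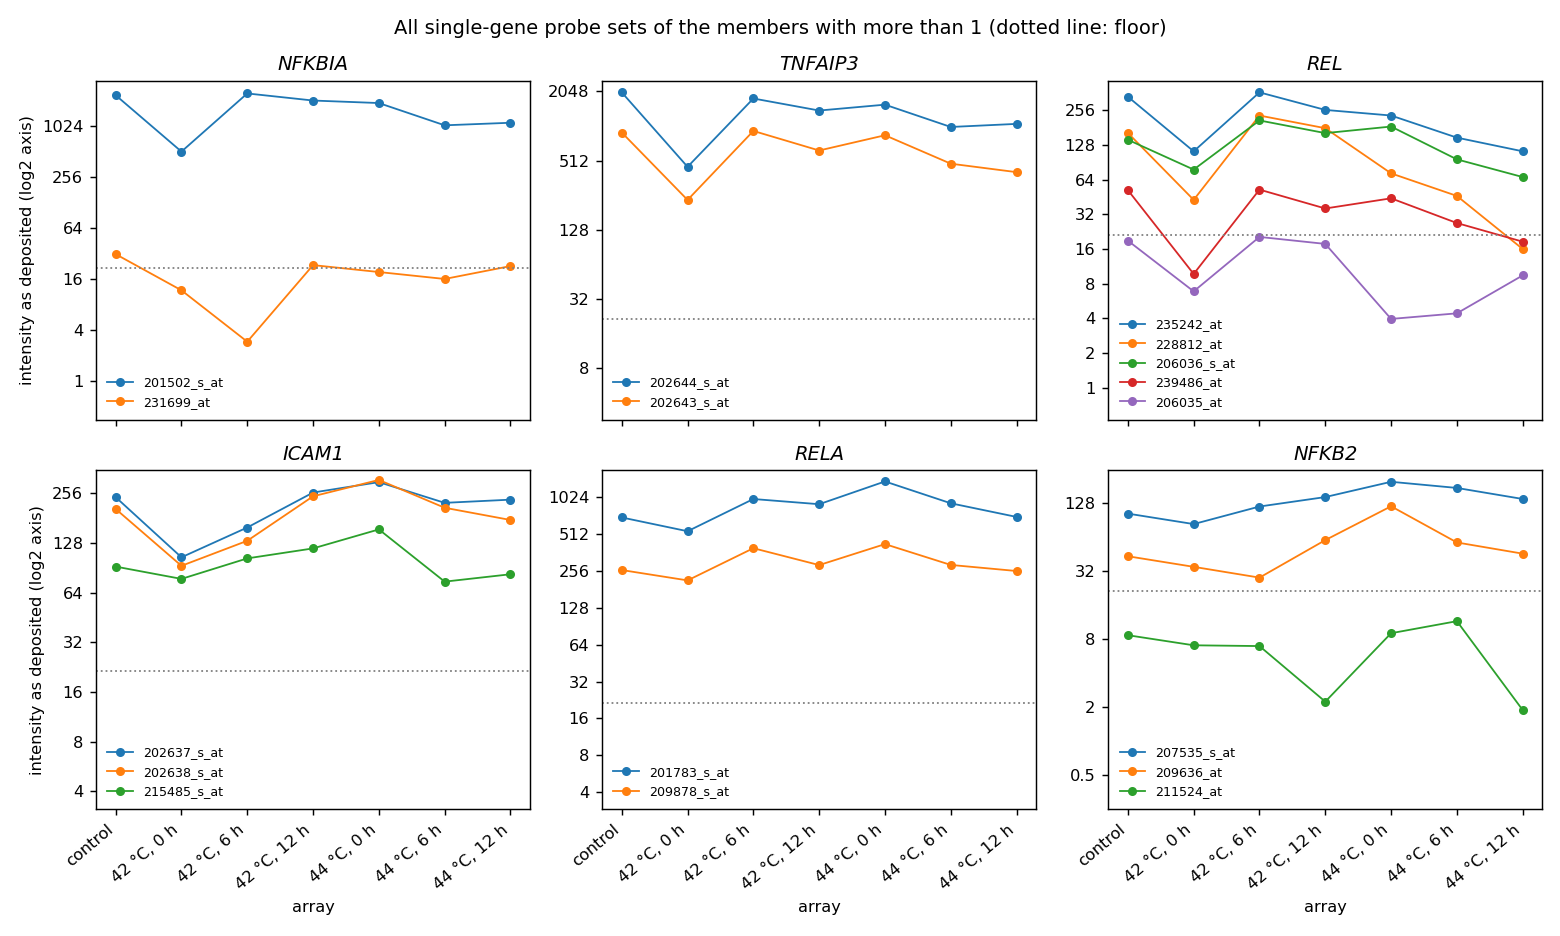
Intensity as deposited (log2 axis) of every single-gene probe set of the 6 genes that have more than 1, on the 7 arrays (dotted line, floor). Both TNFAIP3 probe sets and all 4 REL probe sets that reached the floor on any array dip on the 42 °C, 0 h array. The second NFKBIA probe set reads at most 31.2 and is below the floor on 4 of the arrays.

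Among 3336 bright genes that ranged over at least 1 log2 unit, the 10 members themselves left out of the search, those whose course over the 7 arrays was most like that of a falling member were found by Pearson correlation of median-shifted log2 values, given as a description over 7 points that share array and scaling. NFKBIA and TNFAIP3 followed each other with r = 0.96. Both are far below the control on the 42 °C, 0 h array (4.63-fold and 4.44-fold). That array weighs on this r, and r without it was not computed. Outside the 10 genes, closest to NFKBIA were ZNF574 (r = 0.96) and the chemokine CXCL2 (r = 0.96), and to TNFAIP3 DDX59 (r = 0.98) and ADPRM (r = 0.96). Closest to IER3 were LINC01128 (r = 0.995) and ZMYND8 (r = 0.98), and to REL CENPC and SUV39H2 (both r = 0.98). ICAM1 was most like GADD45A (r = 0.96) and the chemokine CCL20 (r = 0.94), and ZFP36 most like FOXO3 and KDM7A (both r = 0.93). GADD45A, a growth arrest gene, read 3143 in the control and 1153 at 42 °C, 0 h, and FOXO3 read 669 in the control and 376 at 44 °C, 6 h.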

How the data were processed

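The authors deposited linear-scale intensity values for 54675 probe sets on each of 7 arrays, prepared per the labels from 5 µg of total RNA. How these were summarised from the scans is not stated in the labels or file headers. Gene names came from the platform's annotation, and symbols were updated through a gene table of assembly GRCh38.p14. Of the probe sets 41097 listed 1 gene, 1801 several and 11777 were not listed. The brightest single-gene probe set (by mean over the arrays) stood for a gene, and 15029 of 19775 genes reached the floor of 21.4, the median of all values, on any array. Lower values were set to the floor after scaling and before log2, so a fold against such a value is a bound. The median shift used the 20902 probe sets that reached it on each array. The rule for calling a gene was run on simulated data, with changes well past 2-fold in bright genes and less scatter than the probe set yardstick. That run gives no error rate for differences near 2-fold.

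The genes, lists and rules were chosen with earlier results of these data known, and named genes were the 10 members, up to 4 called genes per list with the largest difference from the control, the 2 most similar genes per called member, and HSPA6 and DNAJB1 as a check of the labels. DNAJB1 read 881 in the control and 1299 to 9949 on the heated arrays. Alternatives were each scaling alone, no floor, and the mean of a gene's probe sets. Python 3.11.15, numpy 2.4.6 and pandas 2.3.3 were used.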

Additional observations from a re-analysis of the deposited data

How the results depend on the processing

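The number of the 10 genes that passed in each of the 13 comparisons was within 1.5 times the reported count in 13 comparisons without a floor, 12 with the median shift alone, 11 with quantile normalization alone, 10 with the mean of probe sets and 8 on the deposited scale alone. The 5 falls at 42 °C, 0 h were the same genes under each scaling and without a floor, and with the mean of probe sets 4 of them remained, without ICAM1. Counts that moved on the deposited scale were 2 in place of 1 at 44 °C, 12 h (NFKBIA added), 7, 4 and 2 in place of 2, 2 and 0 for 44 °C against 42 °C at 0, 6 and 12 h, and 2 in place of 0 for 6 h against 0 h after 44 °C. After quantile normalization the count was 5 in place of 3 at 44 °C, 6 h (IER3 and TNFAIP3 added). It was 1 in place of 0 for 12 h against 6 h after 44 °C, both with this scaling and with the median shift (ZFP36). With the mean of probe sets it was 1 in place of 3 at 44 °C, 6 h (NFKBIA and REL lost), 1 in place of 2 for 44 °C against 42 °C at 0 h (NFKBIA lost, averaged with its dim probe set) and 1 in place of 0 at 12 h (REL). With that mean the rises from 0 to 6 h after 42 °C were 3 in place of 4, again without NFKBIA. Of 60 differences of the 10 genes from the control, 11 changed sign between scalings, none of them past 2-fold. The difference of NFKBIB at 42 °C, 6 h turned to 0.35 with the mean of probe sets, and the cause was not tested. No paired analysis was possible because there was 1 array per condition.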

Other observations

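ZFP36 belongs to a family of 3 mRNA-destabilising proteins, and its relatives were followed with other proteins that bind AU-rich elements. None of the 6 genes (ZFP36L1, ZFP36L2, ELAVL1, HNRNPD, KHSRP and TIA1) passed 2-fold under all scalings on any heated array against the control. With 0.725% to 3.64% of all tested genes fallen and 0.991% to 2.18% risen per heated array, this count is near the background. ZFP36L1 and TIA1 were picked after their values were seen. ZFP36L1 read 1991 in the control, 1010 at 42 °C, 0 h and 1327 at 44 °C, 6 h, the array on which ZFP36 was lowest. TIA1, which gathers in stress granules, read 312 in the control and 154 at 44 °C, 12 h.

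The other IER genes did not share the course of IER3. IER5, an early gene that assists the heat shock factor HSF1, read 2496 in the control and 8856 at 42 °C, 0 h, a rise of 3.55-fold on the array where IER3 fell. It read 3349 and 3118 at 42 °C, 6 and 12 h and 4345, 5128 and 4943 after 44 °C, above the control without passing. IER5L read 92.9 in the control, 104, 67.3 and 39.5 after 42 °C and 639, 712 and 558 after 44 °C. It rose 6.88-fold, 7.67-fold and 6.01-fold on the 44 °C arrays and fell 2.35-fold at 42 °C, 12 h. IER2, the remaining gene of the list, read 823 in the control and 860 to 1435 on the heated arrays and did not pass.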
